A study of Mus musculus with 6 samples.

Results

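The genes described here encode 10 matricellular, proteoglycan and other secreted matrix proteins, taken as a named list from the 27151 genes of the deposited table. They are Smoc2, Smoc1, Sparc, Thbs1, Thbs2, Ogn, Vcan, Fn1, Scube3 and Mamdc2. The members were chosen by their measured FPKM values in GSK4112 against control libraries, so that difference is given for the members as a description and nothing is inferred from it. The cells were granulosa cells, the somatic cells around the oocyte, released by puncture of mouse ovarian follicles in a medium with milrinone. All were cultured for 24 h with 10% serum and then for 12 h without serum. The 3 control libraries came from cells kept for a further 24 h without an added compound and the 3 GSK4112 libraries from cells given GSK4112, an agonist of the heme-binding nuclear receptor NR1D1 (REV-ERBα), with the medium changed every 12 h. Strain, age and the number of animals are not in the labels, and the design text speaks of treatment in vivo where the protocol describes culture. Nothing says whether replicates were separate cultures, so errors and p-values measure the spread between these libraries, which may be technical.

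Matricellular proteins are secreted into the extracellular matrix but act mainly by binding receptors, growth factors and proteases and less by giving the matrix its strength. SPARC, its modular relatives SMOC1 and SMOC2, and the thrombospondins are classic examples, while fibronectin and versican are larger scaffold molecules to which cells and hyaluronan attach. In the ovary versican is part of the hyaluronan-rich matrix of the ovulatory follicle, where ADAMTS proteases cut it, and thrombospondin-1 is known as an inhibitor of vessel growth.

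Levels are FPKM, that is fragment counts divided by exon length and by library size, so they can be set side by side between genes. Means are given ± SD with n = 3 per group, and differences between groups as log2(FPKM + 1), GSK4112 minus control, ± the standard error of limma. A gene with a mean FPKM of at least 1 was tested, which 12181 genes were, and 9 of the 10 members. The member below that level was Thbs2. A gene was called when its adjusted p in limma over all tested genes was under 0.05.

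The libraries held 16559258 to 18158272 fragments as read from the FPKM steps. The replicate 1 libraries stood apart in both groups. Over 20 mitosis genes the FPKM added up to 303 (control) and 227 (GSK4112) there, against 40.8 to 82.7 in the other 4 libraries. Of 16 granulosa markers 15 had a mean of at least 1, led by Inha (1370 to 2245), the gene of the inhibin alpha subunit, and Foxl2 was at 29.9 to 64.4. The exception was Amh (0.253 to 0.66). The granulosa markers summed to 3299.5 to 3890.5 in control and to 2411 to 3189 in GSK4112 libraries, but single markers did not follow the sum. Cyp11a1 (means 751 and 418), Inhba (335 and 124), Inhbb, Esr2, Fst, Hsd17b1 and Serpine2 were lower in GSK4112 without overlap. Gata4 was higher without overlap (97.3 and 123). For Inha (2036 and 1892), Nr5a1 (38.8 and 37.9), Amhr2 (56.6 and 59.8) and the remaining markers the groups overlapped. Endothelial markers summed to 0.589 to 1.17, and the 3 blood cell markers in the table to at most 0.377. In bulk RNA fewer cells of a type and less RNA per cell cannot be told apart.

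Thbs1 and Sparc were by far the most abundant members. Thbs1 ranked 22 and Sparc 41 by mean FPKM among the 12181 tested genes, and together they held 93.3 to 94.3% of the summed FPKM of the 10 members in control libraries and 80.7 to 88.7% in GSK4112 libraries. Mamdc2 ranked 632, Smoc2 2198, Smoc1 2457, Fn1 3478, Scube3 4883, Ogn 7099 and Vcan 7368. Neighbours in this order such as Smoc2 and Smoc1, or Ogn and Vcan, had overlapping values over the 6 libraries. The groups did not overlap in 6 of the 9 tested members, with 2 higher (Smoc2 and Mamdc2) and 4 lower (Smoc1, Thbs1, Ogn and Scube3) in GSK4112. Over all tested genes the groups did not overlap in 23.6%, with GSK4112 higher in 15.7% and lower in 7.90%. In limma 3 of the 9 were called, with Smoc2 higher and Ogn and Scube3 lower, where 1.03% of all tested genes were called (0.410% higher and 0.624% lower). With the replicate number as a block Mamdc2, Smoc1 and Thbs1 were called as well, making 6 of 9 (2 higher and 4 lower) beside 6.89% of all genes (3.07% higher and 3.82% lower). Without both replicate 1 libraries 6 were called too, 2 higher and 4 lower, beside 6.92% (3.17% higher and 3.75% lower). Since this contrast entered the choice of members, these counts describe the list and nothing more. Without control replicate 1 only Scube3 of the members was called. Limma called 0 members when control replicate 2 or 3 or GSK4112 replicate 2 or 3 was left out. In each of these last fits 6 members had an unadjusted p under 0.05. Over all tested genes this held for 1716 of 12197 without control replicate 2 and 1841 of 12176 without control replicate 3. It held for 1219 of 12138 without GSK4112 replicate 2 and 1315 of 12211 without GSK4112 replicate 3. The 6 too describe the list and nothing more. The median difference of the 9 members was -0.20, beside 0.05 over all tested genes.

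**Figure D1:**
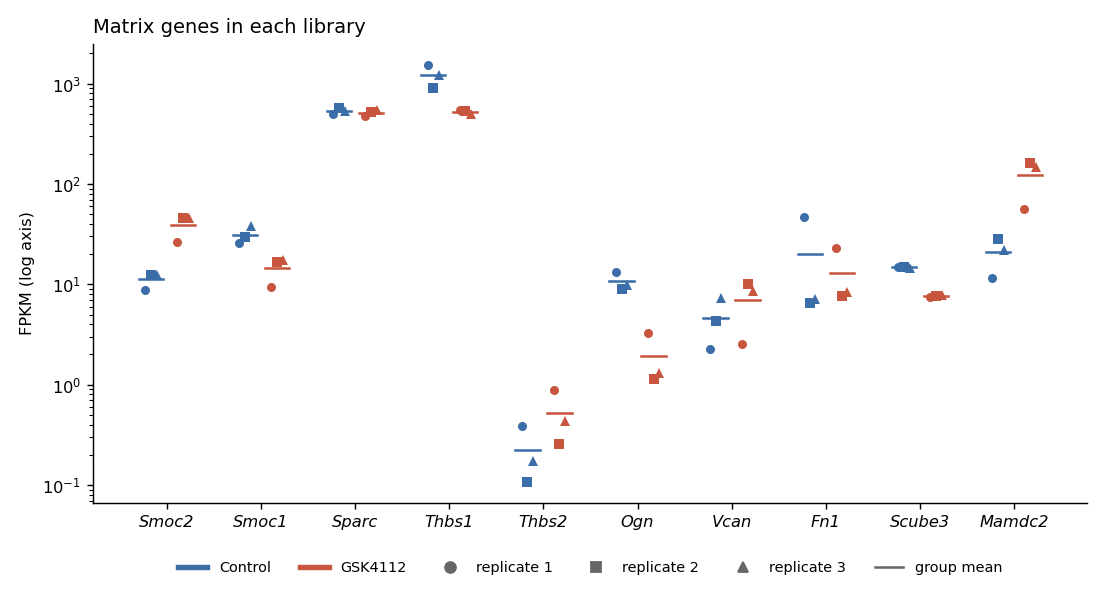
FPKM of the 10 matrix genes on a log axis, with 1 point per library (circle, square and triangle for replicates 1, 2 and 3, blue for control, red for GSK4112) and a bar at each group mean. The groups are separate for Smoc2, Smoc1, Thbs1, Ogn, Scube3 and Mamdc2 and overlap for Sparc, Thbs2, Vcan and Fn1, and the replicate 1 circle of Fn1 lies at 46.9 in control and 22.8 in GSK4112.

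Of the members called lower in GSK4112, Ogn has a RefSeq window whose 250 bases before the start lie outside the annotated gene, and they are shown because NR1D1 acts by binding DNA. Capitals mark CpG dinucleotides, and the stretch is written 5′ to 3′ on the plus strand of GRCm38.p6, at chr13:49607765-49608014.
Ogn: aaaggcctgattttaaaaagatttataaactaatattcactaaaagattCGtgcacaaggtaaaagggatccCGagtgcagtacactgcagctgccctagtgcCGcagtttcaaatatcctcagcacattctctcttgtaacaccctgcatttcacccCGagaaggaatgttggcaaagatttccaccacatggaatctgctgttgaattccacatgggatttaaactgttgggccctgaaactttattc
This stretch held 4 CpG dinucleotides, where the median over 32851 such windows was 6. Windows from 250 bases before to 50 bases after the RefSeq gene start were searched on both strands for AGGTCA, the half-site of many nuclear receptors, for TAGGTCA and TGGGTCA, longer sequences that NR1D1 can bind, of which the first contains AGGTCA, and for the clock E-box CACGTG. None of the 5 members with a window (Ogn, Scube3, Sparc, Thbs2 and Vcan) held any of these, and over all 32851 windows 16.3% held AGGTCA, 2.61% TAGGTCA, 3.98% TGGGTCA and 7.15% CACGTG. The RefSeq start lies inside the GENCODE gene for Scube3, by 168 bases, and for Sparc, by 3103 bases, so these windows do not cover the 250 bases before the first annotated base of either gene. The absence says only that these letters do not occur in these 300 bases.

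The SPARC family held members that differed in opposite directions. Smoc2 (ENSMUSG00000023886; GRCm38 chromosome 17, 14279506 to 14404790, plus strand) encodes a calcium-binding matricellular protein with a SPARC-like domain. It stood at 8.83, 12.4 and 12.3 in control replicates 1 to 3 and at 26.5, 45.7 and 45.95 in GSK4112 replicates 1 to 3. Every GSK4112 library was above every control library, and replicate 1 was lowest in each group (log2 difference 1.70 ± 0.238). Within replicate numbers the GSK4112 value was 3.0 (replicate 1), 3.67 (replicate 2) and 3.73 (replicate 3) times the control value.

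Smoc1 (ENSMUSG00000021136; chromosome 12, 81026808 to 81186414, plus strand) encodes the closest relative of SMOC2, known as a modulator of BMP signalling. It stood at 25.7, 29.9 and 38.5 in control and at 9.39, 16.5 and 17.4 in GSK4112 libraries, with no overlap and again the lowest value of each group in replicate 1. The means were 31.4 ± 6.52 and 14.4 ± 4.4, a log2 difference of -1.09 ± 0.25. The gene was not called without the block. Its standard error was 0.118 with the block, where it was called.

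The order of both SMOC genes differed between the groups. Smoc2 stood at 0.343, 0.416 and 0.32 times the level of Smoc1 in the control libraries and at 2.82, 2.76 and 2.64 times in the GSK4112 libraries. The sum of both genes was less separated, at 34.5, 42.3 and 50.8 in control and 35.9, 62.2 and 63.3 in GSK4112 libraries, and these sums overlapped. The ratio varied less among the libraries of a group than either gene did, and replicate 1 was low for both.

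Sparc (ENSMUSG00000018593; chromosome 11, 55394500 to 55423183, minus strand), which encodes the collagen-binding founder of the family, did not follow either relative. It stood at 498, 568 and 528 in control and at 474, 520.1 and 546 in GSK4112 libraries, and the groups overlapped. The means were 532 ± 35.03 and 513 ± 36.7 (log2 difference -0.05 ± 0.11), and the difference turned to 0.04 under quantile normalization. The other relatives that passed the filter, Fstl1 (28.8 ± 17.99 and 35.99 ± 22.8, adjusted p = 0.798) and Spock2 (8.7 ± 4.72 and 11.5 ± 6.2, adjusted p = 0.795), were not called in limma.

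The thrombospondins bind CD36, CD47, integrins and proteoglycans, and thrombospondin-1 can activate latent TGF-beta. Thbs1 (ENSMUSG00000040152; chromosome 2, 118111876 to 118127133, plus strand) stood at 1540.4, 912 and 1225 in control and at 543, 529 and 496 in GSK4112 libraries. The GSK4112 libraries lay close together, with a coefficient of variation of 4.59% against 25.6% in control, and all were below the lowest control library. The means were 1226 ± 314 and 523 ± 23.98 (log2 difference -1.20 ± 0.199). The gene missed the threshold without the block and was called with it, with median-of-ratios scaling and with limma-voom on the recovered fragments, and in 9 of the 22 alternatives in all. Thbs1 made up 57.5 to 71.2% of the members' summed FPKM in control and 38.7 to 47.4% in GSK4112 libraries. Without it the sums of the other 9 members overlapped, at 622 to 674 in control and 603 to 784 in GSK4112 libraries.

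Thbs2 (ENSMUSG00000023885; chromosome 17, 14665500 to 14694235, minus strand) encodes a protein of the same trimeric subgroup as thrombospondin-1 but was close to the detection limit. It stood at 0.391, 0.108 and 0.173 in control and at 0.889, 0.255 and 0.437 in GSK4112 libraries, which rested on 50, 13 and 20 and on 105, 30 and 53 fragments. The groups overlapped, and the counting error of these values was 9.76 to 27.7%. Within each replicate number the GSK4112 value was the higher, by 2.28, 2.37 and 2.53 times. Thbs1 stood 611 to 8473 times above Thbs2 across the 6 libraries. Thbs2 and Smoc2 are the nearest protein-coding genes to each other on that side, 260.71 kb apart.

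Thbs4, the gene of a pentameric thrombospondin, fell from 4.67 ± 1.08 to 1.41 ± 0.304 (log2 difference -1.23 ± 0.173, adjusted p = 0.0401 in limma). Its GSK4112 libraries (1.08, 1.47 and 1.68) were all below the control libraries (5.91, 4.16 and 3.93). Thbs3, of the same subgroup, was at 1.23 ± 0.512 and 1.04 ± 0.162 and was not called.

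The proteoglycan members were the small Ogn and the large Vcan. Ogn (ENSMUSG00000021390; chromosome 13, 49608046 to 49624501, plus strand) encodes osteoglycin, a small leucine-rich proteoglycan. It stood at 13.3, 8.896 and 9.91 in control and at 3.297, 1.13 and 1.30 in GSK4112 libraries. No library of one group reached the range of the other, and replicate 1 was the highest of each group. Within replicate numbers the control value was 4.04, 7.87 and 7.62 times the GSK4112 value. The GSK4112 values rested on 143, 48 and 58 fragments, with counting errors of 8.36 to 14.4%.

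Ogn lies in a cluster of leucine-rich proteoglycan genes, and the nearest coding gene that does not overlap it is Omd (osteomodulin), 15.2 kb away. Omd fell as well, from 9.36 ± 0.633 to 3.19 ± 0.78 (log2 difference -1.32 ± 0.148, adjusted p = 0.0227 in limma), with control libraries at 9.77, 8.63 and 9.67 and GSK4112 libraries at 2.45, 4.0 and 3.12. Aspn, the next gene of the cluster, was below the filter at 0.219 ± 0.0601 and 0.0839 ± 0.0401, and so was Ecm2 at 0.279 ± 0.0968 and 0.149 ± 0.0207. The coding gene on the other side, Nol8, stood at 6.06 ± 1.56 and 5.595 ± 1.18 and was not called (adjusted p = 0.853). The centromere gene Cenpp spans Ogn on the opposite strand and stood at 2.19, 0.836 and 0.633 in control and 1.48, 0.424 and 0.224 in GSK4112 libraries. Reads of the 2 strands cannot be told apart here, and the part of Cenpp in the values of Ogn was not tested. Among 4 tested small leucine-rich proteoglycan genes other than Ogn, Omd alone was called and 3 were not called in limma. With Ogn counted, 2 of the 5 tested were higher and 3 lower, called or not. With the block 2 of the 4 were lower, Omd and Podnl1. Without both replicate 1 libraries 1 of the 4 was called higher and 2 lower.

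Vcan (ENSMUSG00000021614; chromosome 13, 89655312 to 89742509, minus strand) encodes versican, which binds hyaluronan. It stood at 2.27, 4.32 and 7.38 in control and at 2.55, 9.96 and 8.57 in GSK4112 libraries. The groups overlapped, the replicate 1 libraries were the lowest of each, and the log2 difference of 0.45 ± 0.506 was smaller than its error. It was 0.107 without control replicate 1, 0.147 without GSK4112 replicate 2, 0.244 without GSK4112 replicate 3, 0.786 without control replicate 3 and 0.96 without GSK4112 replicate 1. Vcan was called in 1 of the 22 alternatives, without both replicate 1 libraries and with the block. The members of the same matrix that a follicle uses at ovulation were near the filter or below it. Of 18 genes for hyalectans, link proteins and hyaluronan handling in the table, 4 passed, and none of the 3 apart from Vcan was called in limma, had an unadjusted p under 0.05 or was called by limma-voom. The most abundant of them was Tnfaip6, whose product binds hyaluronan, at 2.11 ± 0.274 and 2.09 ± 0.743 (adjusted p = 0.957). Hapln1, the link protein gene next to Vcan, was at 0.0942 ± 0.0226 and 0.0605 ± 0.0362.

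Among the proteases that cut versican, Adamts1 was at 60.5 ± 13.8 and 47.5 ± 6.29 (adjusted p = 0.427 in limma) and Adamts9 at 20.7 ± 4.6 and 25.5 ± 5.49 (adjusted p = 0.531). Of 10 ADAMTS genes tested 1 fell and 9 were not called. The one that fell was Adamts19, from 4.95 ± 1.81 to 1.12 ± 0.319 (log2 difference -1.46 ± 0.23, adjusted p = 0.0477). With the replicate block Adamts5 (4.83 ± 3.44 and 1.67 ± 1.04) was called lower too.

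Fn1 (ENSMUSG00000026193; chromosome 1, 71585520 to 71653200, minus strand) encodes fibronectin, the adhesive scaffold that integrins bind, and its values lay further apart between replicate 1 and the other libraries than between the groups. It stood at 46.9, 6.45 and 7.15 in control and at 22.8, 7.66 and 8.39 in GSK4112 libraries. Replicate 1 was 6.90 times the mean of the other 2 libraries in control and 2.84 times in GSK4112. The log2 difference of -0.20 ± 0.771 turned to 0.68 without control replicate 1 and to 0.21 without both replicate 1 libraries.

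Several markers moved with Fn1. The smooth muscle actin gene Acta2 was at 234 and 125 in the replicate 1 libraries and at 44.5 to 76.9 in the others. The sum of 8 smooth muscle markers was 267 in control replicate 1, 145 in GSK4112 replicate 1 and 53.1 to 89.4 in the others. Most of this sum was Acta2 itself, and 5 of the 8 had a mean of at least 1. The 9 stroma and fibroblast markers in the table added up to 43.0 (control) and 28.1 (GSK4112) in replicate 1 and to between 12.6 and 16.7 elsewhere, with 4 of the 9 at a mean of at least 1 and Col1a1 at 26.2 and 13.5 against 7.09 to 7.51. The 9 immune markers summed to 42.1 and 39.4 against 7.83 to 19.97, with 3 of the 9 at a mean of at least 1. Most of this sum was Lyz2, at 34.2 and 30.1 against 4.29 to 12.4. Tyrobp was at 1.65 and 2.39 against 0.721 to 1.21, and Cd68 at 4.47 and 5.69 against 2.20 to 5.54. The 7 ovarian surface epithelium markers summed to 8.64 and 8.46 against 2.56 to 4.54. The 9 oocyte markers, all below a mean of 1, summed to 4.30 and 1.21 against 0.145 to 2.03. The 7 theca markers did not move with Fn1 in control, and summed to 10.2 and 32.7 against 13.5 to 17.6. Only 3 of the 7 had a mean of at least 1, and Cyp17a1 was at a mean of 0.027. Most of the 32.7 was Lhcgr, at 3.39 and 25.3 in replicate 1 against 5.15 to 8.33. Lhcgr was also higher in GSK4112 without overlap (means 4.88 and 13.5). The granulosa sum was lowest in replicate 1 of each group (3299.5 and 2411). No gene of these lists was at 0 in every library. The part of any cells of these types, and of the mitosis genes, in the level of Fn1 was not tested.

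Other members also differed between replicate 1 and the rest, and by direction. Replicate 1 lay on the same side of the mean of replicates 2 and 3 in both groups for 8 of the 9 tested members, beside 71.0% of all tested genes. Fn1 was at least 2-fold higher in replicate 1 in both groups, 1 of 9 members beside 2.91% of all genes. Mamdc2 and Vcan were at most 0.5 times the mean of the other libraries in both groups, 2 of 9 beside 1.37%. For Vcan the other libraries averaged 2.58 times replicate 1 in control and 3.64 times in GSK4112, and for Mamdc2 2.19 and 2.73 times. Thbs2, below the filter, was 2.79 and 2.57 times higher in replicate 1. Scube3 was the exception to the shared side, at 1.00 and 0.952 times, and with Sparc (0.909 and 0.889 times) it was the steadiest member. Thbs1 was 1.44 times higher in control replicate 1 and 1.06 times in GSK4112 replicate 1.

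**Figure D2:**
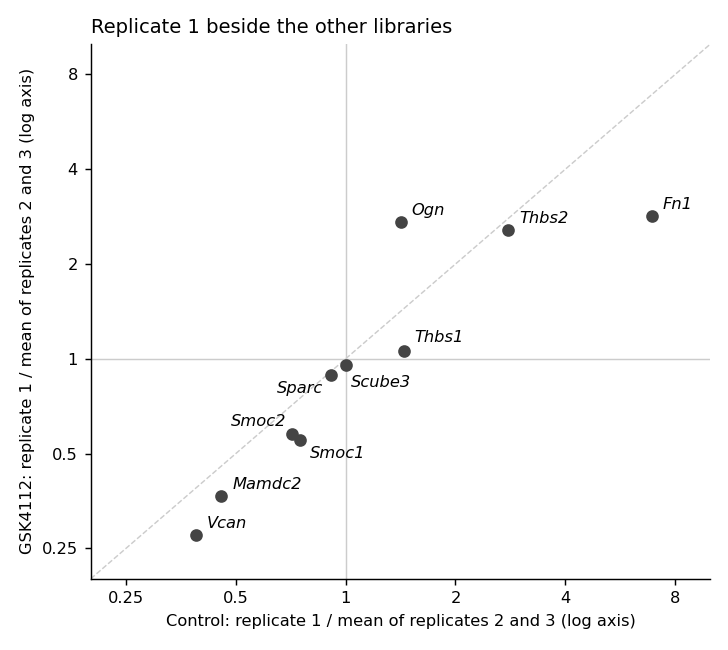
Ratio of replicate 1 to the mean of replicates 2 and 3 for each member, in control libraries (x axis) and GSK4112 libraries (y axis), both on log axes, with 1 point per gene, lines at a ratio of 1 and a dashed line where both ratios are equal. Fn1 (6.90 and 2.84) and Thbs2 (2.79 and 2.57) lie high in both groups, Vcan (0.388 and 0.275) and Mamdc2 (0.457 and 0.366) low in both, and Sparc and Scube3 lie near 1.

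Mamdc2 and Scube3 encode modular secreted proteins that differed in opposite directions. Mamdc2 (ENSMUSG00000033207; chromosome 19, 23302609 to 23448442, minus strand) encodes a secreted protein with MAM domains. It stood at 11.6, 28.6 and 22.1 in control and at 56.7, 162 and 148 in GSK4112 libraries. The lowest GSK4112 library was above the highest control library, and within replicate numbers the GSK4112 value was 4.90, 5.67 and 6.69 times the control value. The means were 20.8 ± 8.59 and 122 ± 57.2 (log2 difference 2.45 ± 0.472). It was not called without the block, while with the block its standard error was 0.113 and it was called. On the linear FPKM scale Mamdc2 in GSK4112 replicate 1 was closer to the control libraries than to the other GSK4112 libraries. As a ratio it was 4.90 times control replicate 1 and 0.366 times the mean of the other GSK4112 libraries. The nearest coding genes on the side of lower coordinates, Smc5 (12.6 ± 1.66 and 16.6 ± 2.07, adjusted p = 0.223) and Klf9 (13.1 ± 3.18 and 12.1 ± 1.24, adjusted p = 0.843), were not called in limma. On the other side 1700028P14Rik, 110.3 kb away, was below the filter at 0.110 ± 0.0353 and 0.136 ± 0.236.

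Scube3 (ENSMUSG00000038677; chromosome 17, 28142141 to 28174854, plus strand) encodes a secreted and membrane-tethered protein that can act as a coreceptor for TGF-beta and BMP ligands. All 3 control libraries stood at 14.7 and the GSK4112 libraries at 7.41, 7.73 and 7.84, so the groups were well apart with little spread. The means were 14.7 ± 0.0238 and 7.66 ± 0.221 (log2 difference -0.86 ± 0.0707). The control libraries varied by 0.161% (coefficient of variation), less than the 2.06 to 2.15% that counting 2163 to 2366 fragments gives on its own, so this spread understates the error. Scube3 was called in 18 of the 22 alternatives. Its relative Scube1 was at 7.70 ± 2.31 and 4.70 ± 1.07 (adjusted p = 0.285 in limma) and was lower with the replicate block (adjusted p = 0.0247).

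**Figure D3:**
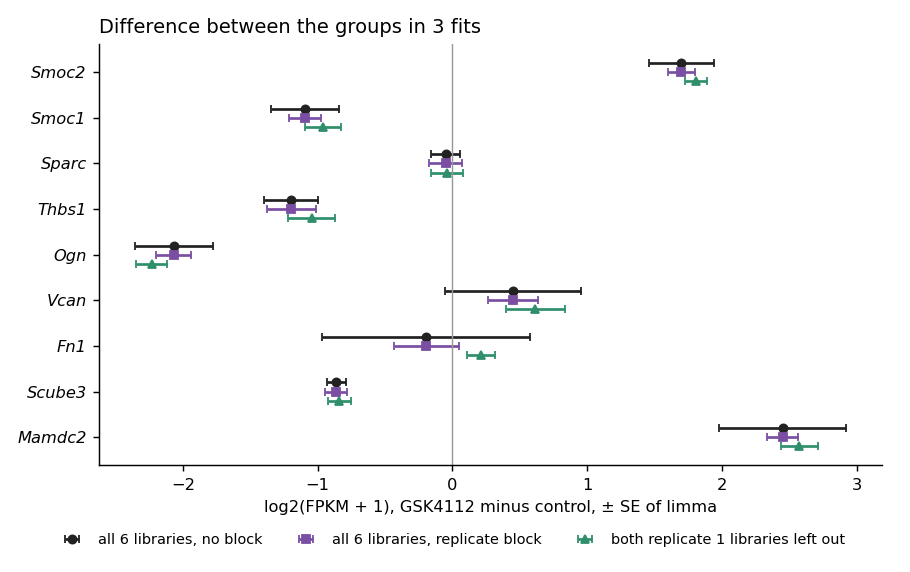
Difference of the 9 tested members in log2(FPKM + 1), GSK4112 minus control, with error bars of 1 standard error of limma, in a fit of all 6 libraries (black circles), that fit with a block for the replicate (purple squares) and a fit without both replicate 1 libraries (green triangles). The error of Mamdc2 shrinks from 0.472 to 0.113 with the block, and Fn1 moves from -0.20 to 0.21 without the replicate 1 libraries.

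The rest of the secreted matrix was examined with 11 lists of related genes, of which 87 genes that are no members passed the filter. Of these 2 rose, 5 fell and 80 were not called, that is 8.05% beside 1.03% of all tested genes. With the replicate block 4 rose and 14 fell, 20.7% beside 6.89%. Leaving out control replicate 2, control replicate 3, GSK4112 replicate 2 or GSK4112 replicate 3 gave 0 calls among these genes in limma. In those fits 14 to 25 of these genes had an unadjusted p under 0.05, beside 1219 to 1841 of all tested genes. The median difference of the 87 genes was -0.07, beside 0.05 over all tested genes. The lists were chosen with results of these data known, and this share is a description.

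Adhesive glycoproteins other than Fn1 gave 1 rise and 1 fall among 20 tested, and 18 were not called. Aebp1, which encodes a collagen-binding matrix protein, rose from 152 ± 11.1 to 260.3 ± 14.1 (log2 difference 0.78 ± 0.0957, adjusted p = 0.0350 in limma), with every GSK4112 library above every control library. Fbln1, the gene of fibulin-1, which binds fibronectin and versican, fell from 15.02 ± 3.05 to 6.67 ± 0.627 (log2 difference -1.05 ± 0.156, adjusted p = 0.0438). The block added falls of Tnc (16.5 ± 6.67 and 10.1 ± 3.63), the gene of tenascin-C, and Fbln5 (2.37 ± 1.13 and 0.795 ± 0.527).

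The structural lists covered elastic fibres and basement membranes. Of 9 elastic fibre and microfibril genes none was called in limma, 3 had an unadjusted p under 0.05 and limma-voom called 0. Over all tested genes 2065 of 12181 had an unadjusted p under 0.05 in limma. With the block Ltbp1, whose product holds latent TGF-beta in the matrix, was higher (84.8 ± 26.3 and 168 ± 49.1, adjusted p = 0.00534 there and 0.194 otherwise), and Lox and Adamtsl4 were lower. Ltbp3 was at 67.9 ± 1.12 and 57.4 ± 4.97 (adjusted p = 0.236). Of 16 basement membrane genes none was called, 2 had an unadjusted p under 0.05 and limma-voom called 0. Col4a1 (158 ± 57.4 and 177 ± 69.8) and Col4a2 (110.2 ± 30.7 and 122 ± 38.4), the most abundant, were not called. With the block the laminin gene Lama1 was lower (42.5 ± 13.01 and 23.2 ± 1.64, adjusted p = 0.0375).

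CCN proteins are matricellular proteins outside the member list. None of 4 tested was called in limma, had an unadjusted p under 0.05 or was called by limma-voom. Ccn1 was at 346 ± 134 and 200.3 ± 138 and was lower with the block (adjusted p = 0.0290 there and 0.383 otherwise). Ccn2 was at 52.9 ± 34.01 and 41.95 ± 38.7 (adjusted p = 0.734 in limma) and was called lower in 3 of the 22 alternatives. Without both replicate 1 libraries 3 of the 4 were called lower. As with Fn1, the replicate 1 libraries held the highest Ccn1 value of each group (497 and 359).

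Receptors of the members gave 1 rise and 1 fall among 15 tested, and 13 were not called. Sdc4, the gene of syndecan-4, a heparan sulfate proteoglycan that binds fibronectin and thrombospondin-1, fell from 162 ± 12.7 to 90.5 ± 13.4 (log2 difference -0.84 ± 0.126, adjusted p = 0.0443 in limma). Lrp8, a lipoprotein receptor gene whose product also binds thrombospondin-1, was higher in GSK4112 libraries (12.03, 11.4 and 10.6) than in control libraries (5.36, 5.65 and 6.32; adjusted p = 0.0202). Itgb3, the beta subunit gene of the vitronectin-type integrins, was higher with the block (4.23 ± 0.6 and 7.63 ± 0.987, adjusted p = 0.0102 there and 0.0594 otherwise). The subunit genes of the classic fibronectin receptor, Itga5 (30.6 ± 3.36 and 30.02 ± 0.616) and Itgb1 (269 ± 13.6 and 257 ± 9.38), were not called, nor were the thrombospondin receptor genes Cd47 (13.1 ± 2.50 and 15.5 ± 0.613) and Cd36 (2.03 ± 1.57 and 2.48 ± 0.996).

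**Figure D4:**
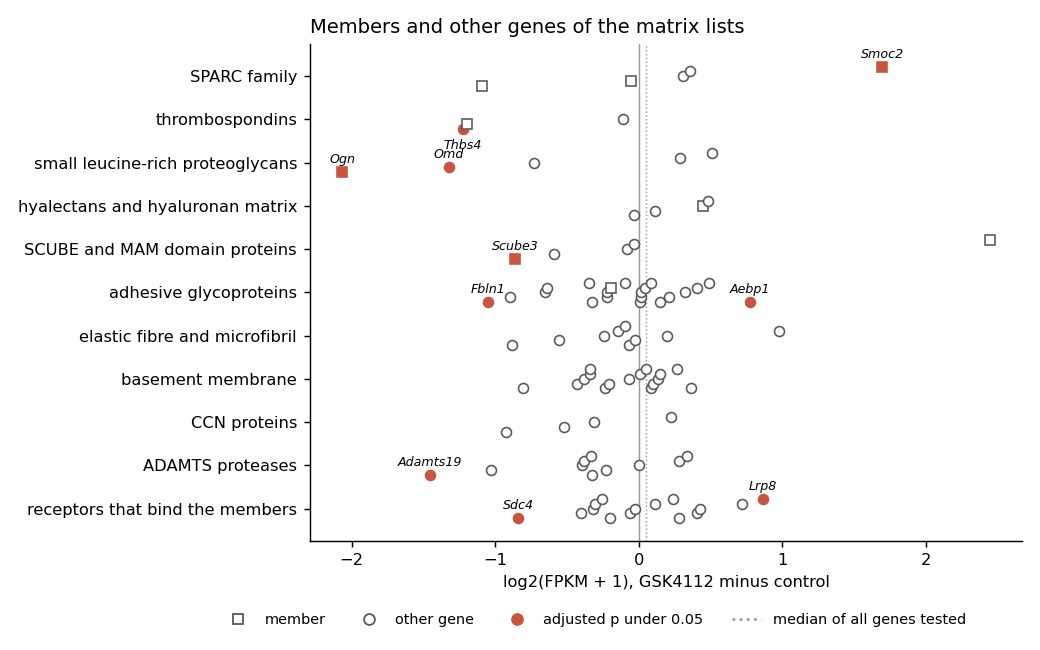
Difference in log2(FPKM + 1), GSK4112 minus control, for the members (squares) and the other tested genes (circles) of the 11 lists, with 1 row per list, genes with an adjusted p under 0.05 in limma filled in red and named, and a dotted line at the median of all tested genes (0.05). The filled points are Smoc2, Aebp1 and Lrp8 on the right and Ogn, Adamts19, Omd, Thbs4, Fbln1, Scube3 and Sdc4 on the left.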

How the data were processed

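RNA sequencing of 3 control and 3 GSK4112 libraries of cultured mouse granulosa cells was analysed, grouped by their titles. Per the file headers the authors deposited FPKM values, and per the submitters' processing notes the genome build was GRCm38. The sources used here do not give the aligner, counting program, annotation release or strandedness, so reads of overlapping antisense genes cannot be told apart. GENCODE M21 gave symbols for 27098 of 27151 IDs, and the 10 members were matched by symbol. Multiplying FPKM by exon length gave steps worth 16559258 to 18158272 fragments per library, with 92.8 to 93.1% of values below 500 fragments whole within 0.01. These fragments give the counting errors quoted, which cover counting only.

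On the scale log2(FPKM + 1), 12181 genes whose mean FPKM reached 1 entered a 2-sided limma test (limma 3.58.1, R 4.3.3) with a variance trend. A gene was called at a Benjamini-Hochberg adjusted p under 0.05 over all genes tested. Fold changes on this scale understate the change of low genes. The code was tested on simulated data. Alternatives were other scalings, a pseudocount of 0.1 or 0.5, a filter at a mean of 5 or none, no trend, robust fitting, sample weights, the replicate number as a block and each library left out. Leaving out both replicate 1 libraries, and limma-voom on the recovered fragments, were added after the data were seen.

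Replicate numbers 1 to 3 occur in both groups, and no label says what they share. Deviations from the group means correlated at 0.665, 0.326 and 0.213 between same-numbered libraries over genes, each above the limit of 0.1 set for pairing. Because the deviations within a group cancel out, a strong replicate 1 pair raises the correlations among replicates 2 and 3 however they are matched. GSK4112 replicate 2 correlated better with control replicate 3 (0.53), and GSK4112 replicate 3 with control replicate 2 (0.357). The limit therefore cannot decide whether the numbers 2 and 3 pair libraries. The block is given beside a result where it changes a call or a count.

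The members and the lists of related genes were chosen with earlier results of these data known. Named are all members, and per list at most 3 genes called higher and 3 called lower, or, with fewer than 2 calls, its 2 most abundant genes. Genes named outside that rule, in counts or beside a member, were chosen after their values were seen. RefSeq promoter windows on GRCm38.p6 were found for 5 of the 10 members. Protein sequences were not analysed here.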

Additional observations from a re-analysis of the deposited data

How the results depend on the processing

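Over 22 alternatives the 9 tested members gave 198 values, of which 153 kept direction and side of the threshold, 16 lost their call, 21 gained one and 8 changed sign. The 8 concerned Sparc (0.0379 under quantile normalization) and Fn1 (0.0309 with sample weights, 0.21 without both replicate 1 libraries with or without the block), and otherwise fits without 1 library. Leaving out each library in turn, Sparc ran from -0.0962 to 0.00615 and Fn1 from -0.66 to 0.68. Vcan ran from 0.107 to 0.96. Of 17 other genes refitted under every alternative that could give a value, 4 changed sign, in these fits alone, where Fstl1 ran from -0.158 to 0.772, Tnfaip6 from -0.216 to 0.0964, Col4a1 from -0.153 to 0.43 and Col4a2 from -0.112 to 0.348. Members called numbered 3 in limma, 1 without a filter, 6 with sample weights, 6 with the replicate block, 6 without both replicate 1 libraries and 7 with the block added. No gene named as called lost its call with the block. The other genes of the matrix lists called numbered 7, and 0 without a filter (29 at an unadjusted p under 0.05), 4 without the trend, 14 with sample weights, 18 with the block, 21 without both replicate 1 libraries and 26 with the block added. Over all genes 126 were called, and 26 without a filter (2890 of 27151 at an unadjusted p under 0.05). With sample weights 830 were called, with the block 839, without both replicate 1 libraries 837 and with the block added 1105. Limma-voom on recovered fragments with the block called 6 members, 31 other matrix genes and 1398 genes in all. Leaving out each library in turn gave 0 to 4 members, 0 to 7 other matrix genes and 0 to 149 genes in all, with 1219 to 2305 genes at an unadjusted p under 0.05; the counts of 0 in all came without control replicate 3, GSK4112 replicate 2 or GSK4112 replicate 3. Why these counts moved was not tested. With 3 libraries a group the precision is limited by the number of libraries, and for Thbs2 and for Ogn in GSK4112 libraries also by depth.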
